A study of Mus musculus with 6 samples.

Results

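The genes described here are 10 of the 21720 gene symbols in an RNA-seq table of H22 tumours, and they make up the core of MHC class I antigen presentation. They were chosen by symbol from their known roles: the heavy chains H2-K1 and H2-D1, the light chain B2m, the peptide transporter Tap1 and Tap2, the loading factor Tapbp, the immunoproteasome subunits Psmb8, Psmb9 and Psmb10, and the transactivator Nlrc5. All 10 passed the filter on low counts, as did 14963 symbols in all. H22 is a mouse hepatocellular carcinoma line, and here it was grown under the skin of wild-type female BALB/c mice aged 6 to 8 weeks. Once tumours reached about 50 mm3, the control group received 0.5% carboxymethyl cellulose sodium, the vehicle, and the luteolin group received 200 mg/kg of luteolin, a plant flavonoid, by gavage in 0.2 mL each day for 21 days. Each group gave 3 libraries from unsorted tumour tissue, named here control and luteolin replicates 1 to 3. A whole tumour holds H22 cells of a single line together with host leukocytes, stroma and vessels, so a higher level of a class I gene in more cells and a higher level per cell cannot be told apart.

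Nucleated cells display peptides cut from their own proteins on MHC class I molecules, where CD8+ T cells read them. The proteasome cuts the proteins, the TAP transporter moves the peptides into the endoplasmic reticulum, and tapasin with other chaperones loads them onto a heavy chain paired with β2-microglobulin. Interferon-γ, a cytokine of activated T and NK cells, is known to induce most steps of this pathway, including the exchange of the 3 catalytic proteasome subunits for their immunoproteasome forms, and NLRC5 is known to bind, through RFX and other factors, the SXY module of class I promoters.

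The sequence before the start of 8 of the 10 genes was taken from RefSeq on GRCm38.p6, and no sequence was used for Tap2 and Nlrc5. The heavy chain, light chain and Psmb9-Tap1 promoters are shown because they carry matches to the X2 and Y boxes of the SXY module, and that of Psmb8 because it holds the only gamma-activated site found. Capitals mark the matches of 5 motifs searched on both strands of the 250 bases before each start: the core of the interferon-stimulated response element (GAAANNGAAA), the gamma-activated site (TTCNNNGAA), an NF-kappaB site (GGGNNTTNCC), the X2 box core (TGACG) and the Y box (CCAAT, or ATTGG on the other strand). Only exact matches were counted, so an element that departs from the pattern is not marked. No matches overlapped in these promoters. The H2-K1 promoter lies at chr17:34000348-34000597 on the minus strand, H2-D1 at chr17:35262844-35263093 on the plus strand, and B2m at chr2:122147437-122147686 on the plus strand. Psmb9 and Tap1 start head to head, and the 225 bases between their starts, chr17:34187331-34187555, are printed on the strand of Tap1. The Psmb8 promoter lies at chr17:34197945-34198194 on the plus strand.
H2-K1: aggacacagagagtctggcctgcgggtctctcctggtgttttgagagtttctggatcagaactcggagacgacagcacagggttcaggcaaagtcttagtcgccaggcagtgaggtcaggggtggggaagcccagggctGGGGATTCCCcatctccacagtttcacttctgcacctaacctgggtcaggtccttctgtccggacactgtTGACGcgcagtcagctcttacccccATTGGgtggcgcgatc
H2-D1: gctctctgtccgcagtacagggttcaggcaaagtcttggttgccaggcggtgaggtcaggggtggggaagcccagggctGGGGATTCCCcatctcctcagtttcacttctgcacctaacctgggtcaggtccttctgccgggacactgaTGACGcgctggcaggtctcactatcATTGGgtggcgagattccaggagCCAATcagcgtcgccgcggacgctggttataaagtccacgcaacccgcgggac
B2m: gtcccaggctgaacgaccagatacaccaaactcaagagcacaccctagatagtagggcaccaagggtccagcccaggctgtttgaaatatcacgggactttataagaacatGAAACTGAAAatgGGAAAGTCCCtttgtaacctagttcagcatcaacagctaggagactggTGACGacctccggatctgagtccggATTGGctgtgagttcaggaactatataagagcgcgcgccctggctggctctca
Psmb9-Tap1: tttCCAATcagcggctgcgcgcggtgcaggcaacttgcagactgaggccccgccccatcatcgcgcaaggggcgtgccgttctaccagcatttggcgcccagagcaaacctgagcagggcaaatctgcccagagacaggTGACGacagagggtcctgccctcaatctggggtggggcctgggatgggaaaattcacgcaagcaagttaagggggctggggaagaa
Psmb8: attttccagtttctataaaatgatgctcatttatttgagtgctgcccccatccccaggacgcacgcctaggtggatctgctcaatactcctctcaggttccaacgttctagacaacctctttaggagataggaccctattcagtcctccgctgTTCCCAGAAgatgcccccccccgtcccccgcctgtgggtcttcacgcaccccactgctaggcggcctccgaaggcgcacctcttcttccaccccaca

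H2-K1, H2-D1 and B2m held matches in the same order, an NF-kappaB match followed by TGACG and then ATTGG. The NF-kappaB match lay on the gene's own strand in H2-K1 and H2-D1 and on the other strand in B2m. H2-D1 also held a CCAAT 53 bases before its start. The NF-kappaB match began 111 bases before the start of H2-K1, 171 before that of H2-D1 and 126 before that of B2m, and 4.0% of the 27025 mouse promoters in the same table hold such a match. TGACG began 41, 101 and 78 bases before the start of H2-K1, H2-D1 and B2m, and 17.9% of all promoters hold it. In each of these 3 promoters ATTGG began exactly 25 bases after TGACG began. That spacing was chosen for counting after the sequences had been seen, and it occurs in 15 of the 27025 promoters (0.0555%), among them also H2-M3, a non-classical class I heavy chain. B2m was the only gene of the 8 with an exact match to the interferon-stimulated core, 139 bases before its start, a motif found in 3.04% of all promoters.

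Between Psmb9 and Tap1 a single TGACG stood 86 bases before the start of Tap1 and 144 before that of Psmb9, and a single CCAAT stood 222 and 8 bases before the same starts. The gamma-activated site of Psmb8 began 97 bases before its start, and 7.18% of all promoters hold such a match. Tapbp held only Y boxes, at 248 and 165 bases, a motif that 34.5% of all promoters share, and Psmb10 held no match to the 5 motifs. These matches describe letters in a window of the reference strain and do not show binding.

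**Figure D1:**
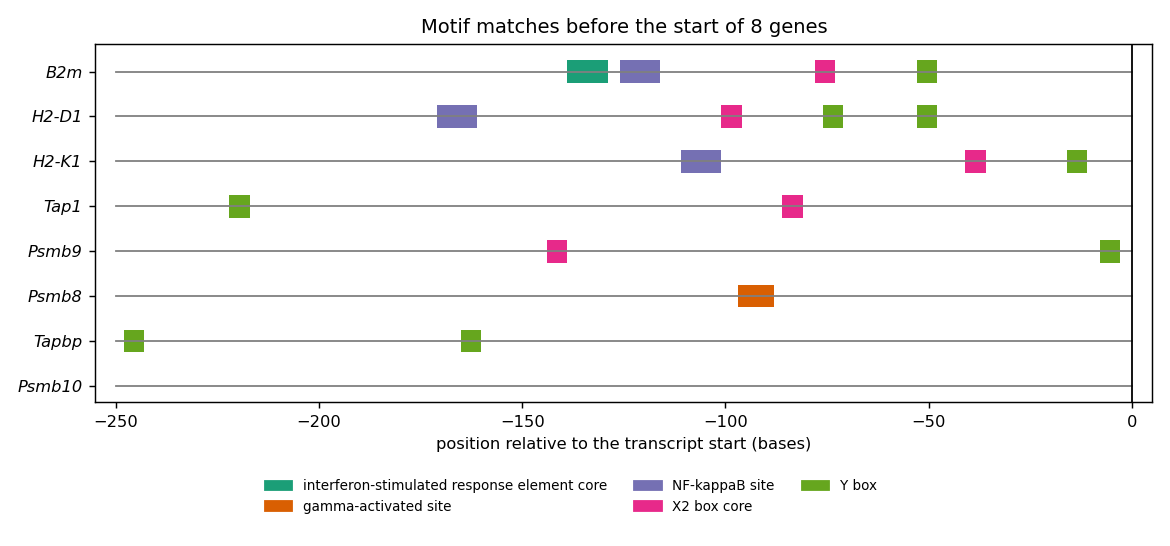
Motif matches (coloured boxes) in the 250 bases before the start of 8 genes, with position relative to the transcript start on the horizontal axis in bases. H2-K1, H2-D1 and B2m share an NF-kappaB match followed by an X2 core and a Y box 25 bases apart, Tap1 and Psmb9 show the same X2 and Y matches from opposite sides, and Psmb10 has none.

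The 6 libraries held 61081637 to 80442954 counts, with 15579 to 15858 genes detected in the control group and 15870 to 16767 in the luteolin group. Levels below are CPM, counts scaled to a library's TMM-adjusted total, and differences are log2 fold changes of luteolin over control from edgeR's quasi-likelihood test fitted on all 14963 genes. The median log2 fold change of all genes was -0.01. Luteolin replicate 2 stood apart from the other libraries. Its summed level of 6 keratinocyte markers was 8097 CPM, against 357 and 16.0 CPM in luteolin replicates 1 and 3 and 4.09 to 5.08 CPM in the control group, where Krt1, Krt5 and Krt14 were at 0. Against the label of a hepatocellular carcinoma, Afp was present at 43.4 to 66.7 CPM in control and 32.7 to 41.8 CPM in luteolin libraries and Trf at 294 to 347 CPM in control and 122 to 283 CPM in luteolin, and Alb ranged from 0.868 to 133 CPM over all 6, whereas Ttr and Hnf4a reached at most 0.392 and 0.327 CPM.

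Of the 10 class I genes, 8 had all luteolin libraries above all control libraries, against 15.9% of all genes, and none had them all below, against 12.8%. Tapbp and Psmb10 were the other two. At an adjusted p under 0.05 edgeR called 1 of the 10 higher, Nlrc5, where 1.34% of all genes were called higher, and 0 lower, where 0.187% were. At the threshold of the study, an unadjusted p under 0.05 with a fold change over 2, it called 5 higher, B2m, Tap1, Psmb8, Psmb9 and Nlrc5, against 11.3% of all genes, and 0 lower, against 1.52%. At an unadjusted p under 0.05 alone, 8 were higher, against 14.0%, and 0 lower, against 6.44%. DESeq2 called the same 5 genes higher at an adjusted p under 0.05, where it called 9.59% of the 16098 genes to which it gave one. The median log2 fold change of the 10 genes was 1.12.

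**Figure D2:**
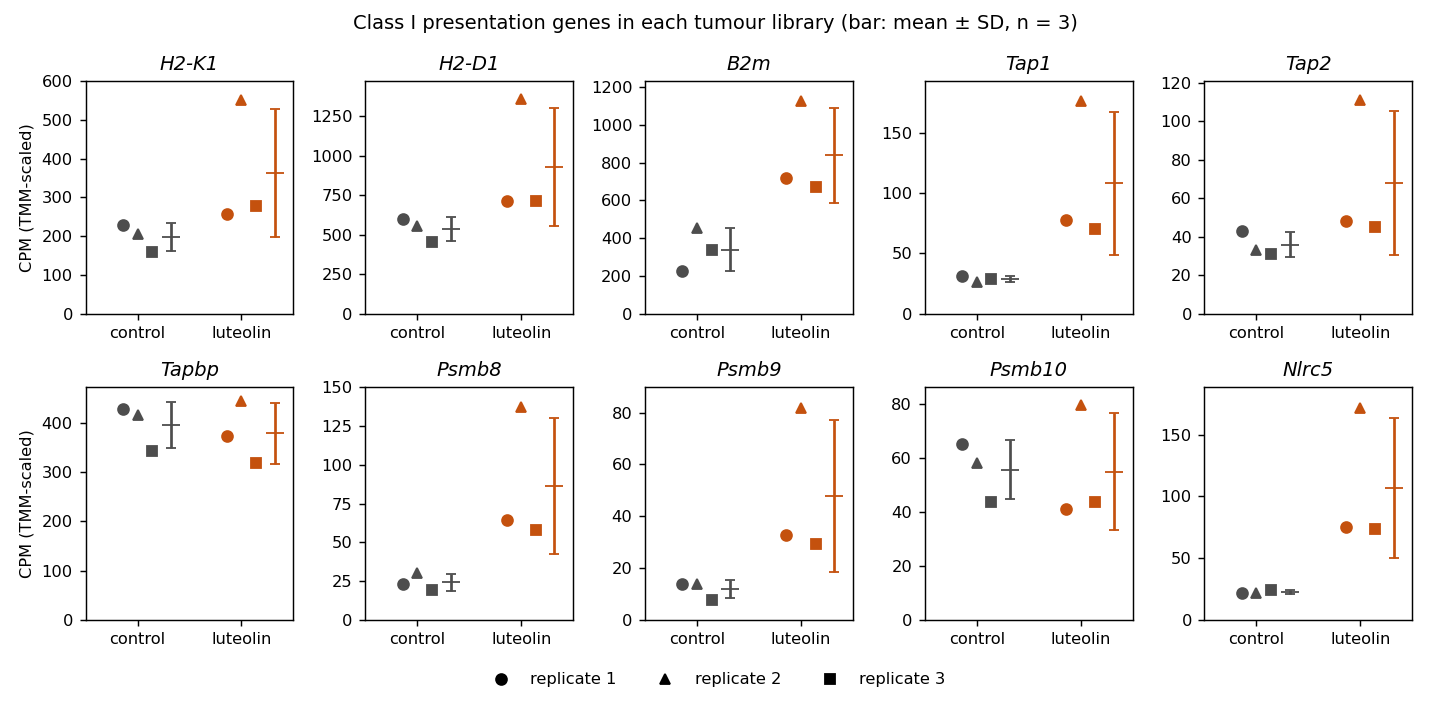
Level of each of the 10 genes in each tumour library (CPM on TMM-scaled totals, vertical axes from 0), with the symbol giving the replicate number and the bar the mean ± SD of 3 libraries. The groups do not overlap in 8 genes, and luteolin replicate 2 is the highest library in all 10.

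The classical heavy chains H2-K1 and H2-D1, which hold the peptide at the cell surface, were higher in the luteolin group by less than 2-fold, and their light chain B2m by more. H2-K1 stood at 229, 206 and 158 CPM in control replicates 1 to 3 and at 258, 552 and 279 CPM in luteolin replicates 1 to 3. The gap between the highest control and the lowest luteolin library was narrow, and luteolin replicate 2 lay far above the other two. Its mean was 197 ± 36.4 CPM in control and 363 ± 164 CPM in luteolin (SD, n = 3 each). edgeR gave a log2 fold change of 0.88 (SE 0.32), with an unadjusted p of 0.0299 and an adjusted p of 0.194. The value without luteolin replicate 2 was 0.46 (adjusted p 0.302 by edgeR).

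H2-D1 followed H2-K1 library by library. It measured 598, 554 and 454 CPM in control and 712, 1358 and 715 CPM in luteolin, again with no overlap and with luteolin replicate 2 far above. The means were 535 ± 73.7 and 928 ± 372 CPM (SD, n = 3 each). Its log2 fold change of 0.79 (SE 0.28) had an adjusted p of 0.187 by edgeR and came to 0.43 without luteolin replicate 2, with an adjusted p of 0.242. BALB/c mice carry the H-2d alleles, while the reference genome is that of C57BL/6J with H-2b alleles, so the counts of H2-K1 and H2-D1 depend on how reads of a different haplotype were assigned. In the reference transcripts, 0 of the 150-base windows of H2-K1 and 1.79% of those of H2-D1 occur in another gene, in this case H2-Q1. These windows come from the reference haplotype alone, so they do not show how reads of H-2d alleles were assigned.

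B2m encodes β2-microglobulin, the invariant chain that heavy chains need to fold and reach the surface. It gave 226, 454 and 339 CPM in control and 721, 1129 and 671 CPM in luteolin, so that every luteolin library exceeded every control library although control replicates differed more than for the heavy chains. The means were 339.8 ± 114 and 841 ± 251 CPM (SD, n = 3 each). This is a log2 fold change of 1.31 (SE 0.31), with an unadjusted p of 0.00414 and an adjusted p of 0.0929 by edgeR and 0.00163 by DESeq2. It came to 1.06 without luteolin replicate 2.

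The ratio of heavy chain to light chain within a library does not depend on scaling. H2-D1 counts per B2m count were 2.65, 1.22 and 1.34 in control and 0.988, 1.20 and 1.06 in luteolin. The groups did not overlap, by a narrow margin, and control replicate 1 was the high library. The difference in mean log2 ratio was -0.59, with an exact two-sided permutation p of 0.1, the smallest that 3 against 3 libraries allow, and 0.175 after adjustment over the 7 ratios computed. It was -0.24 without control replicate 1. For H2-K1 per B2m the values were 1.01, 0.453 and 0.465 in control and 0.357, 0.489 and 0.415 in luteolin, with an exact permutation p of 0.3. Their log2 difference was -0.52, and -0.14 without control replicate 1.

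The non-classical and class I-like heavy chains gave a like picture. Of the 15 tested among 17 listed, 7 passed the threshold of the study as higher and 0 as lower. Of all genes 11.3% and 1.52% did. The median log2 fold change of the 15 was 0.89. H2-Q4, a Qa-type heavy chain, was the only member of that list with an adjusted p under 0.05, at 29.7, 32.1 and 25.0 CPM in control and 83.9, 187 and 81.5 CPM in luteolin. Its log2 fold change was 2.02 (SE 0.35), with an adjusted p of 0.0494 by edgeR. In the reference transcripts, which are not of the BALB/c haplotype, 10.5% of its 150-base windows are shared with Gm11131. H2-T23, which encodes Qa-1, the ligand of the CD94-NKG2A receptor of NK and CD8+ T cells, stood at 103, 101 and 99.8 CPM in control and 154, 246 and 153 CPM in luteolin. Its difference was smaller and tight in the control group, with a log2 fold change of 0.87 (SE 0.21) and an adjusted p of 0.0996. H2-M3, which presents N-formylated peptides, overlapped between groups, at 32.9, 24.8 and 27.2 CPM against 34.0, 45.3 and 29.8 CPM. Its log2 fold change was 0.36 (SE 0.22), with an unadjusted p of 0.142. Its promoter shares the TGACG and ATTGG spacing of H2-K1, H2-D1 and B2m.

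The transporter subunits gave unequal fold changes. Tap1 and Tap2 form the heterodimer that pumps peptides into the endoplasmic reticulum. Tap1 measured 31.3, 26.4 and 28.9 CPM in control and 77.9, 176 and 69.8 CPM in luteolin. Every luteolin library was more than 2-fold above every control library, and the means were 28.9 ± 2.41 and 108 ± 58.9 CPM (SD, n = 3 each). This difference had a log2 fold change of 1.90 (SE 0.37), with an unadjusted p of 0.00134 and an adjusted p of 0.062 by edgeR and 2.48e-05 by DESeq2. Leaving out luteolin replicate 2 gave a log2 fold change of 1.37 and an adjusted p of 0.0256 by edgeR.

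Tap2 gave 43.1, 33.2 and 31.2 CPM in control and 48.0, 111 and 44.9 CPM in luteolin. Luteolin replicates 1 and 3 sat just above control replicate 1, and luteolin replicate 2 carried most of the difference between means of 35.8 ± 6.40 and 67.9 ± 37.2 CPM (SD, n = 3 each). The log2 fold change was 0.92 (SE 0.37, unadjusted p 0.0432, adjusted p 0.228 by edgeR), and without luteolin replicate 2 it was 0.39, with an unadjusted p of 0.0995. The Tap1 count per Tap2 count was 0.725, 0.797 and 0.928 in control and 1.62, 1.58 and 1.55 in luteolin. This ratio was nearly equal among the luteolin libraries, replicate 2 included, and separated the groups by a log2 difference of 0.97 (exact permutation p = 0.1, adjusted p = 0.175 over the 7 ratios).

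Tapbp, which encodes tapasin, the chaperone that bridges TAP and the heavy chain, overlapped completely between the groups. It stood at 428, 416 and 342 CPM in control and at 373, 443 and 318 CPM in luteolin, with means of 395 ± 46.3 and 378 ± 62.4 CPM (SD, n = 3 each). This gave a log2 fold change of -0.06 (SE 0.17) and an adjusted p of 0.884 by edgeR. In the reference transcripts 8.73% of its 150-base windows occur also in Gm19412. Of the 11 other genes of peptide trimming and loading, 0 passed an unadjusted p under 0.05 in either direction, and their median log2 fold change was -0.16. Of all genes 14.0% passed it as higher and 6.44% as lower. In 1 of the 11, Calr, every luteolin library lay above every control library, against 15.9% of all genes. In 1, Lap3, every one lay below, against 12.8%. The log2 fold change of Erap1, the aminopeptidase that trims peptides in the endoplasmic reticulum, was -0.64 (SE 0.37, unadjusted p 0.128). Calreticulin and calnexin, which hold heavy chains while they fold, were at 0.30 for Calr (SE 0.14) and -0.39 for Canx (SE 0.23), the disulphide isomerase Pdia3 at -0.16 (SE 0.35), and Tapbpl, the peptide editor related to tapasin, at -0.02 (SE 0.19).

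**Figure D3:**
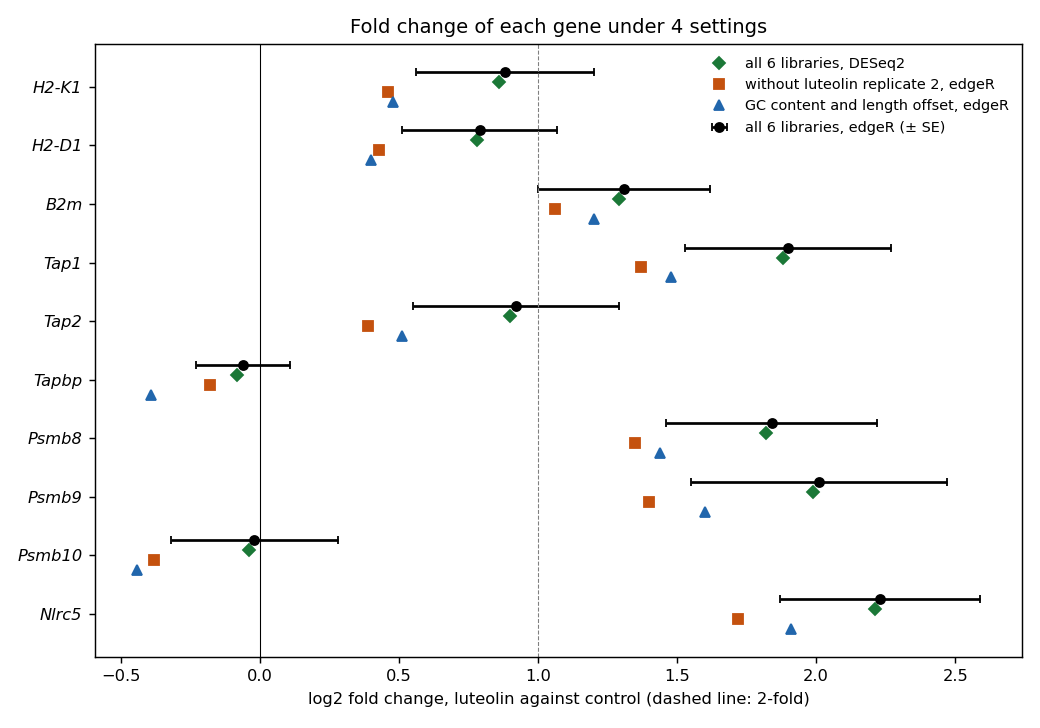
log2 fold change of luteolin over control for each of the 10 genes with all 6 libraries in edgeR (black, ± SE) and DESeq2 (green), without luteolin replicate 2 (orange) and with an offset for GC content and length (blue); the dashed line marks 2-fold. Tapbp and Psmb10 lie near or below 0, and the heavy chains and Tap2 move to between 0.39 and 0.51 without luteolin replicate 2 or with the offset.

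The 3 immunoproteasome subunits gave unequal fold changes. Psmb8 (β5i) and Psmb9 (β1i) were more than 3-fold higher by their group means, and the means of Psmb10 (β2i) were nearly equal. Psmb8 measured 23.4, 30.2 and 19.1 CPM in control and 64.1, 137 and 58.0 CPM in luteolin. Its lowest luteolin library lay well above its highest control library. The means of 24.2 ± 5.61 and 86.5 ± 44.2 CPM (SD, n = 3 each) are 3.57-fold apart. Psmb8 had a log2 fold change of 1.84 (SE 0.38), with an unadjusted p of 0.00182 and an adjusted p of 0.0686 by edgeR and 6.17e-05 by DESeq2. Without luteolin replicate 2 it was 1.35, with an adjusted p of 0.0417 by edgeR.

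Psmb9 was the lowest of the 3 in the control group, at 13.9, 13.9 and 7.75 CPM, and reached 32.6, 81.8 and 29.2 CPM in luteolin. The groups did not overlap, and the means of 11.9 ± 3.56 and 47.9 ± 29.4 CPM (SD, n = 3 each) are 4.03-fold apart. Psmb9 had a log2 fold change of 2.01 (SE 0.46), with an adjusted p of 0.0861 by edgeR and 0.000307 by DESeq2. With luteolin replicate 2 left out it was 1.40, with an adjusted p of 0.0699 by edgeR. Psmb10 gave 65.0, 58.0 and 43.8 CPM in control and 40.9, 79.7 and 43.6 CPM in luteolin. Its luteolin replicates 1 and 3 lay just below every control library and replicate 2 above, and the means were 55.6 ± 10.8 and 54.7 ± 21.6 CPM (SD, n = 3 each). The log2 fold change was -0.02 (SE 0.30, adjusted p 0.979). This became -0.38 without luteolin replicate 2.

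Psmb5, Psmb6 and Psmb7 are the constitutive catalytic subunits whose places Psmb8, Psmb9 and Psmb10 take. Their log2 fold changes were 0.08 (SE 0.33) for Psmb5, 0.26 (SE 0.17) for Psmb6 and -0.04 (SE 0.15) for Psmb7. The Psmb8 count per Psmb5 count was 0.51, 0.704 and 0.732 in control and 1.95, 2.37 and 1.91 in luteolin. The inducible subunit thus had fewer counts than its counterpart in every control library and more in every luteolin library. The log2 difference was 1.69, with an exact permutation p of 0.1 and 0.175 adjusted over the 7 ratios. Psmb9 per Psmb6 was 0.117, 0.115 and 0.0863 in control and 0.258, 0.557 and 0.237 in luteolin, a log2 difference of 1.63 with the same exact permutation p of 0.1. Here the constitutive subunit stayed the more abundant in all 6 libraries. Psmb10 per Psmb7 was 0.387, 0.283 and 0.278 in control and 0.243, 0.434 and 0.265 in luteolin, with overlapping groups and a log2 difference of -0.04 (exact permutation p = 0.8).

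Elsewhere in the proteasome no gene was called. Of the 14 subunits of the constitutive core, 0 passed an unadjusted p under 0.05, with a median log2 fold change of -0.03, and of 27 regulators and assembly factors 0 did, with a median of -0.07. Of all genes 14.0% passed it as higher and 6.44% as lower. Psme1 and Psme2 encode the PA28 activator that interferon-γ is also known to induce. Psme1 stood at 134, 113 and 111 CPM in control and 104, 136 and 88.2 CPM in luteolin (log2 fold change -0.13, SE 0.20). Psme2 stood at 174, 139.9 and 121 CPM in control and 103, 146 and 99.0 CPM in luteolin (log2 fold change -0.32, SE 0.22). Both overlapped between groups.

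**Figure D4:**
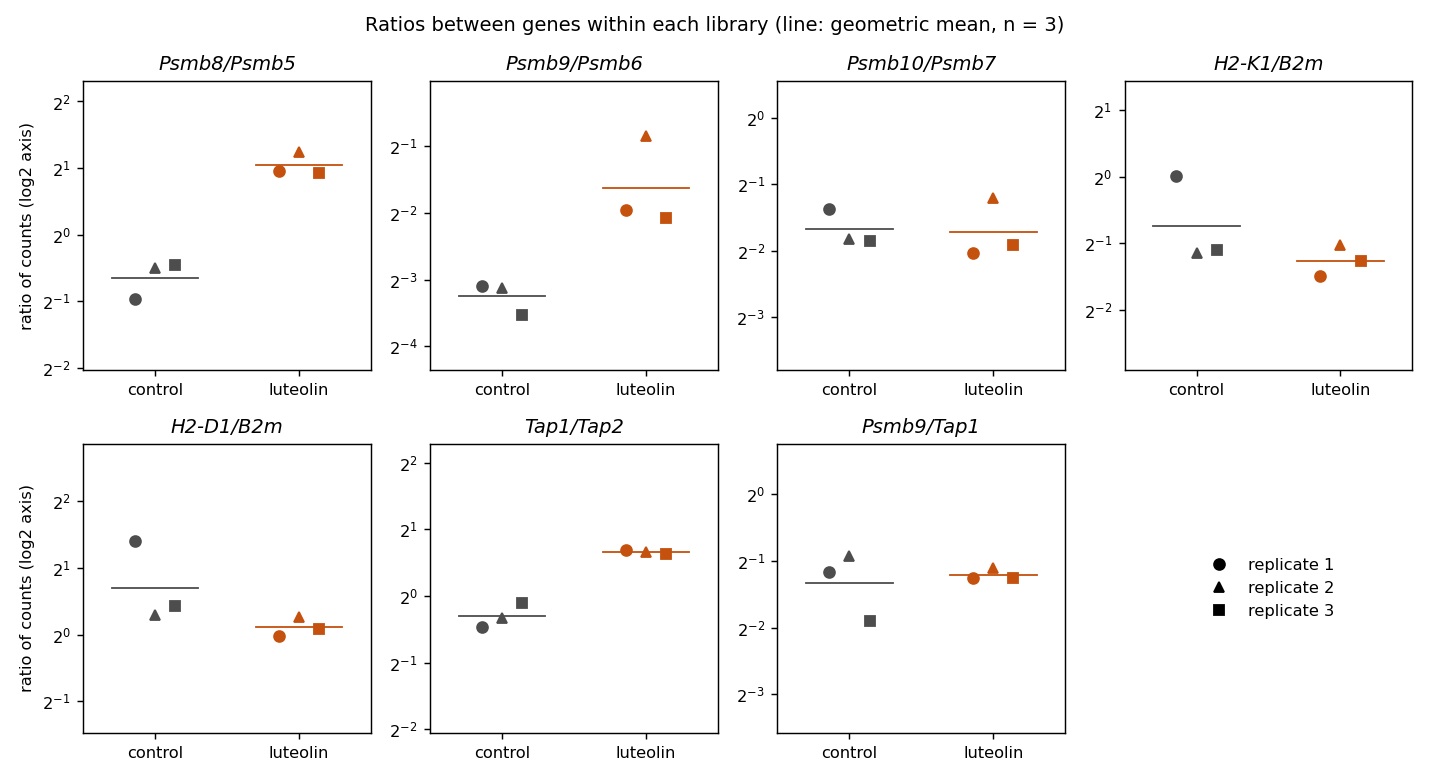
Ratio of the counts of 7 gene pairs within each library (log2 axes), with the symbol giving the replicate number and the line the geometric mean of 3 libraries. Psmb8 over Psmb5, Psmb9 over Psmb6 and Tap1 over Tap2 lie higher in every luteolin library, H2-D1 over B2m lies lower in every one, and the other 3 ratios overlap between groups.

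Psmb9 and Tap1 share the region between their starts, and Psmb9, Tap1, Psmb8 and Tap2 follow each other directly on chromosome 17 in the RefSeq annotation. The Psmb9 count per Tap1 count was 0.445, 0.527 and 0.268 in control and 0.418, 0.466 and 0.419 in luteolin. All 3 luteolin libraries fell within the control range, with a log2 difference of 0.12 (exact permutation p = 0.9). Along this stretch the log2 fold changes were 2.01 for Psmb9, 1.90 for Tap1, 1.84 for Psmb8 and 0.92 for Tap2.

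Nlrc5 encodes the class I transactivator and was the gene with the smallest p among the 10. It measured 21.7, 22.1 and 24.4 CPM in control and 75.0, 172 and 73.2 CPM in luteolin. The control libraries lay close together and every luteolin library lay far above the highest of them. The means of 22.7 ± 1.46 and 107 ± 56.6 CPM (SD, n = 3 each) are 4.70-fold apart. Nlrc5 had a log2 fold change of 2.23 (SE 0.36), with an unadjusted p of 0.000463 and an adjusted p of 0.0437 by edgeR and 1.34e-07 by DESeq2. The edgeR call did not hold without control replicates 1, 2 or 3 or luteolin replicate 1, where the adjusted p was 0.175, 0.217, 0.166 and 0.124 and the log2 fold change 2.15, 2.17, 2.28 and 2.43. In those 4 fits 0 genes of the whole table had an adjusted p under 0.05. It held without luteolin replicate 2 (log2 fold change 1.72, adjusted p 0.0163), and DESeq2 called Nlrc5 with any single library left out.

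Among the 17 regulators that act at class I promoters, 3 passed the threshold of the study as higher and 0 as lower. Of all genes 11.3% and 1.52% did. At an unadjusted p under 0.05 alone 5 of the 17 were higher, against 14.0%, and 2 lower, against 6.44%. The median log2 fold change of the 17 was 0.20. Irf1, a transcription factor that binds class I promoters, overlapped between the groups, at 179, 158 and 159 CPM against 195, 229.8 and 175 CPM (log2 fold change 0.27, SE 0.16, adjusted p 0.382). Ciita, the class II counterpart of Nlrc5, was at 28.4, 25.5 and 22.8 CPM in control and 44.0, 83.2 and 42.0 CPM in luteolin (log2 fold change 1.14, SE 0.30, adjusted p 0.108). Irf8, Irf2 and Stat2 also lay higher in every luteolin library, with log2 fold changes of 1.28, 0.70 and 0.82 (SE 0.43, 0.17 and 0.23). Their unadjusted p values by edgeR were 0.0208, 0.00457 and 0.00935 and their adjusted p values 0.17, 0.0968 and 0.125. Rfx5, a subunit of the RFX complex that NLRC5 works through, was not called but had lower values in the luteolin group. It measured 46.4, 39.4 and 41.7 CPM in control and 30, 23.4 and 26.9 CPM in luteolin, with no overlap and a log2 fold change of -0.67 (SE 0.17), an unadjusted p of 0.00577 and an adjusted p of 0.103. Rfxank, another RFX subunit, also lay lower in every luteolin library, with a log2 fold change of -0.55. Its SE was 0.17, its unadjusted p by edgeR 0.0142 and its adjusted p 0.148. The subunit Rfxap was at 0.12 (SE 0.26, unadjusted p 0.655). Without luteolin replicate 2 only 1 of the 17 passed the threshold of the study as higher, where 7.52% of all genes did.

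Of 12 genes of interferon-γ signalling, a list that shares genes with that of the regulators, 5 passed the threshold of the study as higher and 0 as lower, with a median log2 fold change of 0.58, and 3 passed as higher without luteolin replicate 2. Of all genes 11.3% passed as higher and 1.52% as lower, and 7.52% as higher without luteolin replicate 2. Ifng, the cytokine itself, was scarce, at 0.157, 0.618 and 0.202 CPM in control and 4.77, 2.98 and 2.52 CPM in luteolin. Every luteolin library exceeded every control library, here with luteolin replicate 1 the highest, and the log2 fold change was 3.39 (SE 0.68, adjusted p 0.0665). The receptor genes Ifngr1 and Ifngr2 were not called, with log2 fold changes of 0.33 and 0.07 and unadjusted p values of 0.276 and 0.649. A list of 10 genes held receptors for class I molecules and genes related to such receptors. Of the 7 tested, 5 passed the threshold of the study as higher, against 11.3% of all genes. These were Cd8a, Cd8b1, Klrk1, Pirb and Lilrb4a, and whether each binds class I molecules was not tested. The median log2 fold change of the 7 was 1.75. Cd8a, the coreceptor chain of CD8+ T cells, stood at 1.49, 2.49 and 1.54 CPM in control and 11.3, 9.43 and 10.6 CPM in luteolin, a log2 fold change of 2.51 (SE 0.34, adjusted p 0.0331 by edgeR). The luteolin libraries lay close together for this gene.

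**Figure D5:**
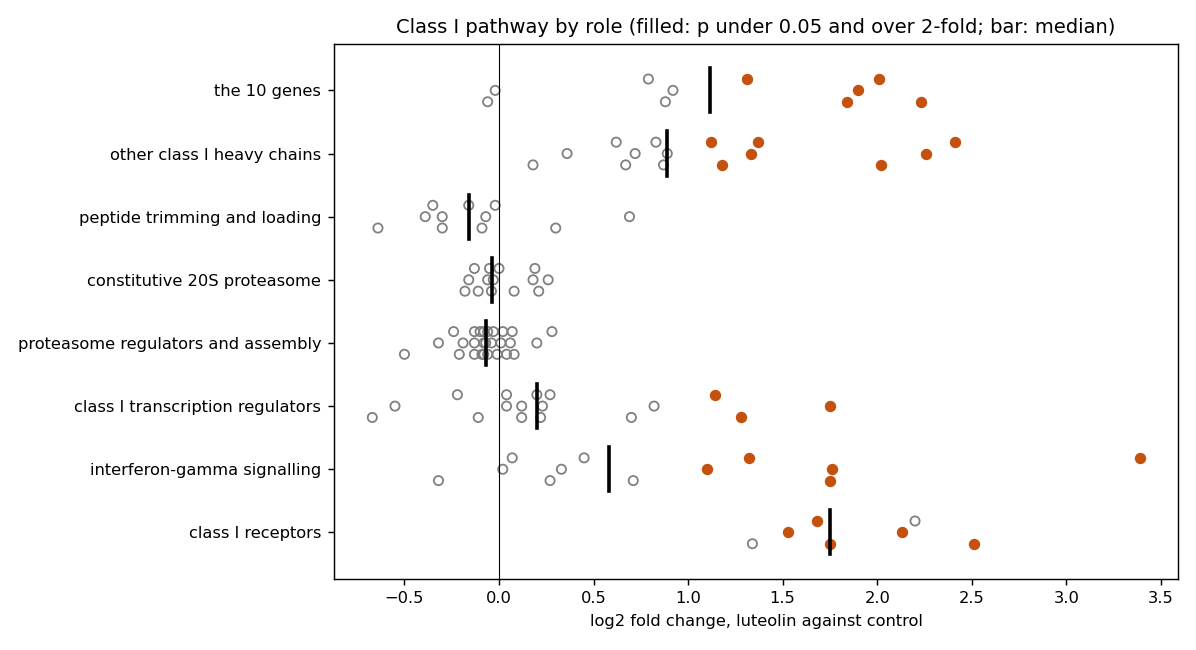
log2 fold change of luteolin over control for each tested gene of 8 lists (points), filled where the unadjusted p is under 0.05 and the fold change over 2, with a bar at the list median. The medians of the 10 genes, the other heavy chains and the list of class I receptors and related genes are 1.12, 0.89 and 1.75, while peptide trimming and loading, the constitutive proteasome core and its regulators lie near 0 with no filled point.

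Levels can be compared between genes only per length, here as CPM per kb of the principal transcript in GENCODE M21. In the control group the order was B2m (395 ± 133), H2-D1 (255 ± 35.1), Tapbp (136 ± 16.0), H2-K1 (122 ± 22.5), Psmb10 (42.4 ± 8.22), Psmb8 (14.9 ± 3.45), Tap2 (10.4 ± 1.86), Tap1 (9.78 ± 0.815), Psmb9 (8.78 ± 2.63) and Nlrc5 (3.0 ± 0.193; SD, n = 3 libraries). B2m and H2-D1, Tapbp and H2-K1, and the run from Psmb8 to Psmb9 were neighbours whose libraries overlapped. In the luteolin group B2m led at 978 ± 292, H2-D1 stood at 442 ± 177, H2-K1 at 224 ± 101, Tapbp at 130.4 ± 21.5 and Psmb8 at 53.1 ± 27.1 CPM per kb. Psmb10 (41.8 ± 16.5), Tap1 (36.5 ± 20), Psmb9 (35.4 ± 21.8), Tap2 (19.7 ± 10.8) and Nlrc5 (14.1 ± 7.47) followed, and from Psmb8 down each overlapped its neighbour. H2-D1 and H2-K1 overlapped narrowly, with H2-K1 at 341 CPM per kb in luteolin replicate 2 and H2-D1 at 339 in luteolin replicate 1. Thus H2-K1 stood above Tapbp and Psmb8 above Psmb10 by their means in the luteolin group, the reverse of the control order, although Psmb8 and Psmb10 overlapped.

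The 10 genes varied together across the libraries in part. Over 45 pairs of genes Pearson's r of log2 CPM across the 6 libraries, which span both groups, ran from 0.003 for B2m with Tapbp to 0.997 for H2-K1 with H2-D1, with a median of 0.885. Tap1 and Nlrc5 had an r of 0.993 and Psmb8 and Psmb9 of 0.989, whereas Nlrc5 with Tapbp gave 0.035 and B2m with Psmb10 0.105. The mean z-score of the 10 genes was -0.37, -0.41 and -0.95 in control replicates 1 to 3 and 0.15, 1.57 and 0.01 in luteolin replicates 1 to 3. The 5 genes outside the 10 whose log2 CPM correlated best with this mean over the 6 libraries were Srprb (0.9968), Slamf9 (0.9964), Lst1 (0.996), Hpx (0.9953) and Leng8 (0.9952). These correlations describe 6 libraries of which 1 stands apart.

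That library was luteolin replicate 2. It held the highest level of all 10 genes, and its ratio to the mean of luteolin replicates 1 and 3 was 1.28 for Tapbp, 1.62 for B2m and 1.89 to 2.65 for the other 8, with a median of 2.15 over the 10 and of 1.06 over all genes. The ratio exceeded 1.5 in 90.0% of the 10 and in 26.1% of all genes. Luteolin replicates 1 and 3 differed by little, with ratios of 0.924 to 1.17. Psmb10, whose group means were nearly equal, shared the high value in replicate 2, with a ratio of 1.89.

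Markers of several other cell types were higher in the luteolin group as well. The summed level of 4 leukocyte markers (Ptprc, Coro1a, Laptm5 and Cd53) was 174 to 224 CPM in control and 384 to 519 CPM in luteolin, and 3 of the 4 passed the threshold of the study as higher. Of all genes 11.3% passed it as higher and 1.52% as lower. Ptprc stood at 46.1, 56.6 and 80.6 against 126, 148 and 134 CPM (log2 fold change 1.16, SE 0.23, adjusted p 0.0638). T cell markers summed to 7.58 to 9.95 CPM in control and 31.2 to 57.7 CPM in luteolin, and all 6 passed the threshold of the study as higher. Macrophage markers summed to 947 to 1117 CPM against 1464 to 2219.8 CPM, with 1 of 7 past that threshold, neutrophil markers to 18.7 to 21.2 CPM against 76.6 to 181 CPM, with 4 of 6, and fibroblast markers to 1408 to 1575 CPM against 2012 to 4976 CPM, with 4 of 6. The neutrophil markers not past it were Ly6g and Retnlg. Their log2 fold changes by edgeR were -0.57 (SE 1.32, unadjusted p 0.679) for the scarce Ly6g and 0.43 (SE 0.79, unadjusted p 0.6) for Retnlg. Dendritic cell markers (4 of 6) summed to 35.1 to 43.2 CPM against 32.7 to 72.5 CPM, B cell markers (2 of 4) to 2.52 to 4.71 CPM against 6.63 to 24 CPM, and endothelial markers (2 of 5) to 79.1 to 100.3 CPM against 96.5 to 245 CPM. In control most of the dendritic cell sum was Zbtb46, with means of 30.5 CPM in control and 24.4 CPM in luteolin. Its log2 fold change was -0.33 (SE 0.20), and the median of the dendritic cell list was 2.04. All 6 keratinocyte markers passed the threshold. NK cell markers summed to 72.8 to 95.4 CPM in control and 57.1 to 61.6 CPM in luteolin, but most of that sum was Eomes, with means of 82.0 and 45.2 CPM and every luteolin library below every control library. The other 3 NK cell markers, Ncr1, Klrb1c and Nkg7, passed the threshold as higher, while adipocyte and skeletal muscle markers had 0 past it. The hepatocyte and hepatoma markers summed to 367 to 425 CPM in control and 195 to 355 CPM in luteolin, with 0 past the threshold. In control most of that sum was Trf, with a mean of 321 CPM. Afp and Trf lay lower in every luteolin library, with log2 fold changes of -0.58 (SE 0.21, unadjusted p 0.0269) and -0.86 (SE 0.34, unadjusted p 0.0397). Alb, Ttr, Apoa1 and Apob went the other way, at 1.57, 1.90, 1.29 and 1.54. Their unadjusted p values by edgeR were 0.31, 0.249, 0.445 and 0.441. The list median was 1.41. The part of these cells in the differences of the class I genes was not tested.

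GC content varied with library as well. The Spearman correlation across genes between GC content and a library's deviation from the mean of all libraries was 0.42, -0.17 and -0.52 in control replicates 1 to 3 and -0.18, 0.43 and -0.36 in luteolin replicates 1 to 3, and genes are not independent replicates. An offset for GC content and length moved the median log2 fold change of all genes to -0.24. Under that offset Nlrc5 stood at 1.91, Psmb9 at 1.60, Tap1 at 1.48, Psmb8 at 1.44 and B2m at 1.20, with Nlrc5, Psmb9, Tap1 and Psmb8 at adjusted p values of 0.0116, 0.0276, 0.0141 and 0.0216 by edgeR. H2-D1 stood at 0.40, H2-K1 at 0.48 and Tap2 at 0.51, Tapbp at -0.39 and Psmb10 at -0.44, the last with an unadjusted p of 0.0237 and an adjusted p of 0.11.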

How the data were processed

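RNA of H22 tumour tissue was sequenced in 3 control and 3 luteolin libraries. The table that the authors deposited holds whole numbers by gene symbol and library, used here as estimated counts. Of the values from 1 to 40, 44.8% are multiples of 4, so these values and the library totals may not be numbers of reads. Per the labels, the submitters' processing notes name bcl2fastq 2.0, HISAT2, StringTie and DESeq2 and the builds rn6 and mm39, without roles. The labels and the methods of the study name different RNA extraction and library kits. All 6 libraries were used and 0 columns were left out. Nothing in the labels says that libraries came from separate animals, so p-values measure the spread between these samples, which may be technical.

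In R 4.3.3, edgeR 4.0.16 (TMM, filterByExpr, quasi-likelihood test, no covariates) was fitted on 14963 genes with Benjamini-Hochberg adjustment, after a test on simulated data. Ratios of counts (pseudocount 0.5) were compared by exact two-sided permutation tests, 7 in all. The alternatives were DESeq2 1.42.0, voom with quality weights (limma 3.58.1), RLE and upper-quartile scaling, no filter, a minimum of 10 counts, the replicate block, values divided by 4, a GC and length offset, each library left out and, added after the data had been seen, DESeq2 with each library left out. The genes named are the 10, genes of the pathway fixed by hand, cell type markers and the 5 with the most similar pattern. Lap3, Rfxank, Rfxap, Irf2, Irf8, Stat2, Ifngr1, Ifngr2, Cd8b1, Klrk1, Pirb and Lilrb4a were also named. These genes and which markers to name were chosen after their values were seen. A gene that was fixed by hand is not reported here. The members and lists were chosen with earlier results of these data known.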

Additional observations from a re-analysis of the deposited data

How the results depend on the processing

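The direction of the 8 genes higher in luteolin was kept in all 21 alternatives, with log2 fold changes of 1.72 to 2.43 for Nlrc5, 1.37 to 2.10 for Tap1, 1.35 to 2.24 for Psmb9, 1.22 to 2.03 for Psmb8, 0.83 to 1.55 for B2m, 0.42 to 1.07 for H2-K1, 0.40 to 0.95 for H2-D1 and 0.39 to 1.12 for Tap2. The number of the 10 genes with an adjusted p under 0.05 depended on the setting: 1 as reported, 3 with a minimum of 10 counts, 3 with values divided by 4, 4 with the GC and length offset, 5 by DESeq2 and 5 by voom. The share of all genes called higher was 1.34% as reported and, in the same order, 2.54%, 2.41%, 3.81%, 9.59% and 12.6%, and with the offset 557 genes were higher and 305 lower, against 200 and 28 as reported. Leaving out each library in turn gave 0 to 3 in edgeR, with 0 without any control replicate or luteolin replicate 1 and 3 without luteolin replicate 2, and 5 to 7 in DESeq2 (6 without luteolin replicate 1 and 7 without luteolin replicate 3). The share of all genes called higher was then 1.82% by edgeR without luteolin replicate 2, 0.993% without luteolin replicate 3 and 0.0% in the other edgeR fits. By DESeq2 it was 6.68% to 11.8%. The causes were not tested. At the threshold of the study the number was 5 as reported and ranged from 4 by voom to 7 without luteolin replicate 1. The share of all genes higher at it was 11.3% as reported, 11.7% by voom and 11.2% by edgeR without luteolin replicate 1. The replicate numbers did not pair the samples: deviations of same-numbered libraries correlated at -0.2, -0.09 and 0.06. With the replicate block, 0 of the 10 genes had an adjusted p under 0.05, and 34 genes of all tested were higher and 1 lower, against 200 and 28 without the block, and Nlrc5 had a log2 fold change of 2.11 and an adjusted p of 0.0825.

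Values near 0 changed sign between settings. The log2 fold change of Psmb10 was 0.02 with upper-quartile scaling and ranged from -0.38 to 0.15 with each library left out in edgeR and from -0.38 to 0.12 in DESeq2, being 0.06, 0.15 and 0.05 (edgeR) and 0.08, 0.12 and 0.09 (DESeq2) without control replicate 1, luteolin replicate 1 and luteolin replicate 3. That of Tapbp was 0.03 by DESeq2 without luteolin replicate 3. The log2 difference of Psmb10 per Psmb7 ranged from -0.30 to 0.12 with each library left out, being 0.11, 0.12 and 0.06 without control replicate 1, luteolin replicate 1 and luteolin replicate 3, and that of Psmb9 per Tap1 ranged from -0.16, without control replicate 3, to 0.33. Without luteolin replicate 2, 1 class I transcription regulator and 3 interferon-γ signalling genes passed the threshold of the study as higher, against 3 and 5 with it. The share of all genes was 7.52% without it and 11.3% with it. The counts of the other lists stayed within 1.5 times in every alternative tried. With 3 libraries a group, no ratio could reach a permutation p under 0.1.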
